A study of Oryza sativa Japonica Group with 4 samples.

Results

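Calcium-dependent protein kinases (CPK, also written CDPK), CBL-interacting protein kinases (CIPK) and the calcineurin B-like (CBL) calcium sensors were examined in rice panicles on 4 Affymetrix arrays. The members were chosen by name alone: a gene was taken if a symbol or synonym in the tables of probe sets and genes was CPK, CDPK, CIPK or CBL directly followed by a number. The names gave 63 genes, and 51 of them were paired alone with a probe set and could be measured, out of 17905 genes measured in this way. They comprised 20 CPK, 24 CIPK and 7 CBL genes. The other 12, not analysed here, were CPK11, CPK14, CPK25, CPK28, CIPK3, CIPK9, CIPK13, CIPK15, CIPK27, CIPK33, CBL1 and CBL7. Where a gene had several probe sets, the brightest by its mean over the 4 arrays stood for it.

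The first pair of arrays held panicles of the polaris (pola) mutant and of wild-type POLA plants, both taken between early and late meiosis. The second pair held panicles of a POLA RNAi line of the T2 generation and of wild-type POLA plants, both at ripening, 10 to 15 days after pollination. Each array was hybridised with RNA pooled from 20 panicles of 10 greenhouse plants, and each of the 4 groups had 1 array. The sources used here give neither cultivar nor mutant allele nor the promoter of the RNAi construct, and the tables do not name the targeted gene, so its own signal could not be checked. One label of the RNAi sample, its description, calls it wild; the 3 other labels that give its identity call it RNAi and were followed. Without replicates no difference below has a replicate check and no test was run, so a difference is a statement about the arrays compared.

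Calcium signals in plants are read by proteins that bind the ion. In a CPK, the kinase and a calmodulin-like calcium-binding domain lie in one polypeptide, so the kinase senses calcium itself. CIPKs have no such domain and are switched on when a CBL protein that has bound calcium docks onto them, which also places the pair at a membrane. Both systems are known from responses to drought, salt, cold and pathogens and from potassium uptake, and CPK23 (SPK) of rice is known from the developing seed.

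Signals are linear MAS5 values, and those of different probe sets are not comparable between genes. A difference, also called a ratio below, is a log2 ratio of signals after adding 23.4, the 25th percentile of all signals. A gene was kept in a comparison when the brighter of both signals was at or above that array's own median, and it was called at least 2-fold higher or lower when the ratio was 1 or more in size. The arrays differed among dim signals: the median signal was 51.8 in mutant panicles and 124 in wild type at meiosis, and 65.7 in RNAi panicles and 163 in wild type at ripening, with 75th percentiles from 487 to 521. The 3' to 5' signal ratio of the GAPDH control was 4.22 in mutant panicles and 2.04 in wild type at meiosis, and 3.32 in RNAi panicles and 2.01 in wild type at ripening. For the actin control it was 8.06 in mutant panicles and 5.89 in wild type at meiosis. At ripening the actin ratio was 6.10 in RNAi panicles and 6.22 in wild type.

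The labelled stages were checked against marker genes. The 6 measured genes of tapetum, pollen wall and germ cells had summed signals of 90171 in mutant panicles and 63169 in wild type at meiosis, and of 298 in RNAi panicles and 504 in wild type at ripening. The 5 grain genes, glutelins and other seed proteins and the granule-bound starch synthase, summed to 232430 in RNAi panicles and 175317 in wild type at ripening, and to 153 in mutant panicles and 247 in wild type at meiosis. The 3 genes of green tissue summed to 28546 in mutant panicles and 20736 in wild type at meiosis, and to 34814 in RNAi panicles and 32530 in wild type at ripening, mostly from CAB2R. They did not move together: PORA was lower at ripening in wild type (-3.35), and RBCS was higher in mutant panicles (1.55). The 3 genes of embryo and desiccation summed to 924 in mutant panicles and 492 in wild type at meiosis, and to 78951 in RNAi panicles and 56092 in wild type at ripening. At meiosis the higher sum came from RAB21 alone, with 668 in mutant panicles and 47.5 in wild type, while EM (-0.90) and LEA19 (-0.53) were lower in mutant panicles.

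Most members read above the array median on each array, though no detection calls were at hand. Of the 51 members, 8 lay below the array median in mutant panicles, 9 in wild type at meiosis, 1 in RNAi panicles and 8 in wild type at ripening. Below the highest of the array medians, 163, lay 12, 10, 6 and 8 members, in the same order of arrays. The medians are those of all probe sets, while each gene was read from its brightest one, so most genes passed them. The filter kept 42 of 51 members in the mutant comparison, against 15779 of 17905 genes. It kept 49 members against 15912 genes in the RNAi comparison, and 45 against 16187 between wild-type stages. Across the 3 comparisons of mutant, RNAi line and stage with wild type, 17 of 51 members were kept and at least 2-fold different at least once, against 36.4% of all 17905 genes. Of the other 34, CPK2 (1.67) and CIPK30 (1.76) passed 2-fold between stages but were removed by the filter. CIPK12 and CIPK30 were kept in none of these 3 comparisons.

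**Figure D1:**
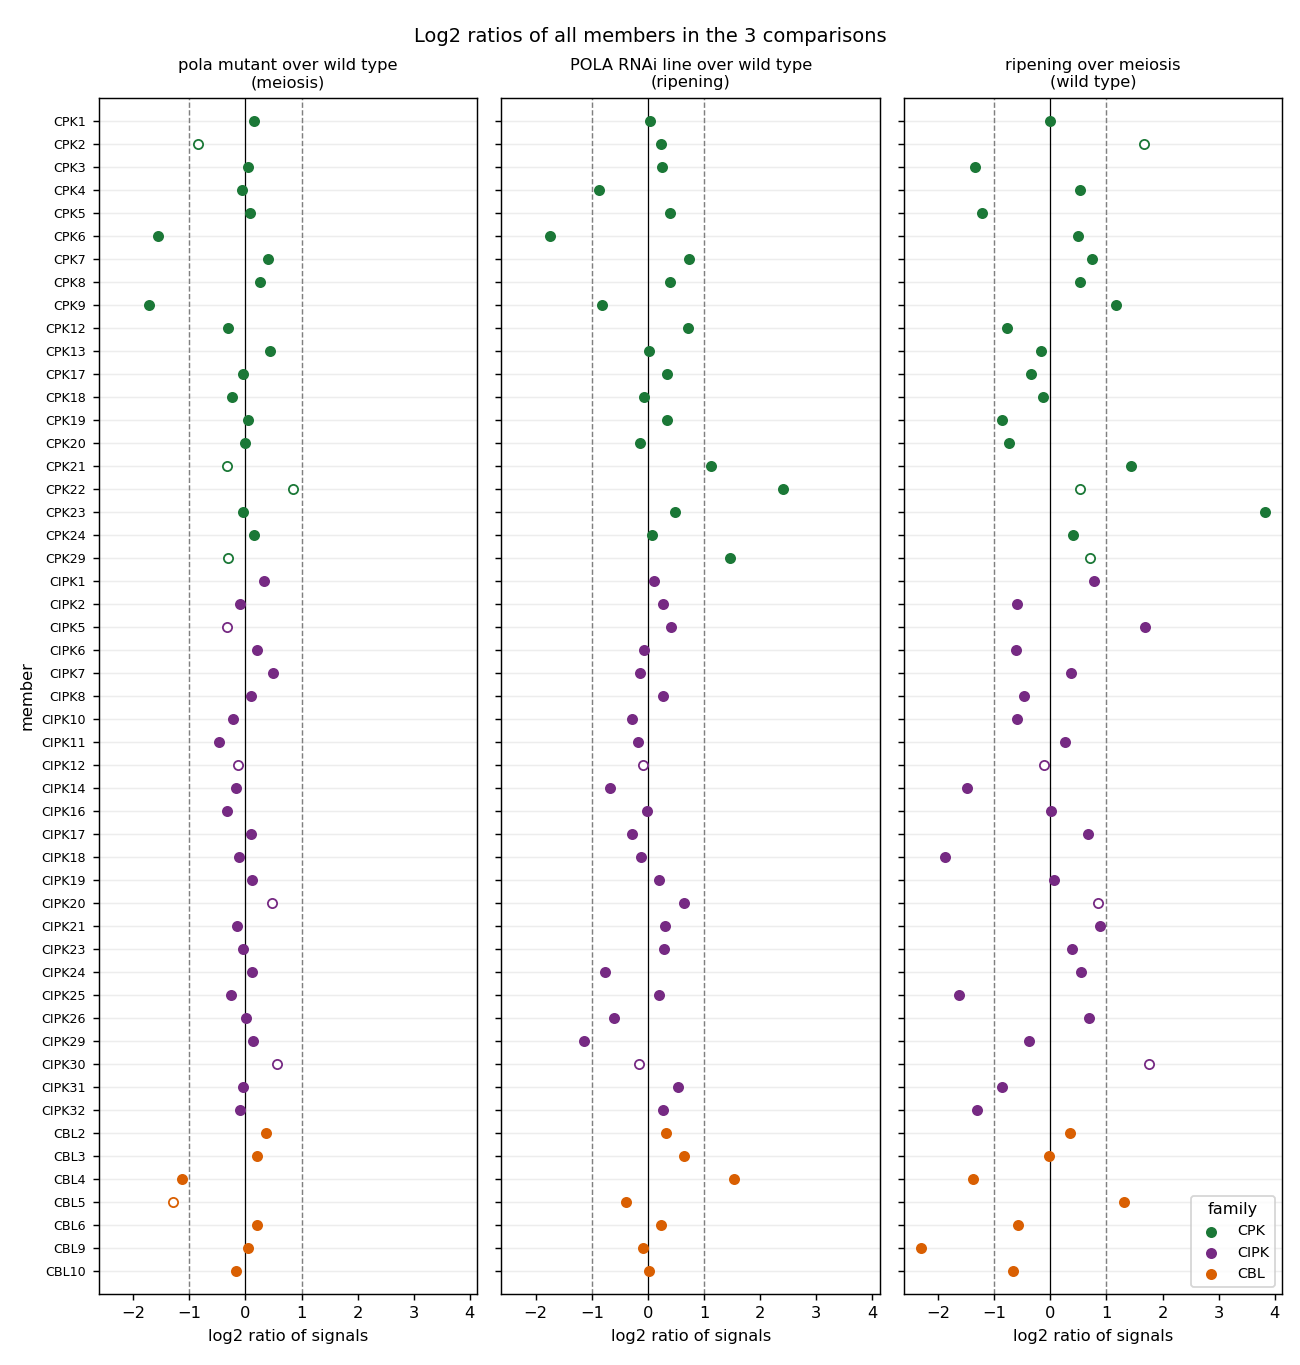
Log2 ratios of signals (x axis) of all 51 members (rows, coloured by family) for pola mutant over wild type at meiosis, POLA RNAi line over wild type at ripening, and ripening over meiosis in wild type; filled points are members kept by the filter, open points are not, and dashed lines mark 2-fold. In the left panel 3 filled points lie beyond 2-fold, all lower, against 6 in the middle panel and 13 in the right one.

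The comparison of stages within wild type asks which members distinguish the ripening from the meiotic panicle. CPK23 was by far the furthest shifted member, higher at ripening, while several CIPK genes, CPK3, CPK5 and CBL9 were higher at meiosis. Of 45 kept members, 5 passed 2-fold upward at ripening and 8 downward, against 15.4% higher and 16.4% lower among all 16187 kept genes. The median log2 ratio of the kept members was -0.02, against -0.01 for all kept genes. As a count, the members were therefore close to the background, and what they show lies in the single genes. In whole panicles, fewer cells of a type and less RNA per cell cannot be told apart.

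CPK23, the seed kinase known to phosphorylate sucrose synthase in rice endosperm, read 26454 in wild type at ripening and 1838 in wild type at meiosis. It read 36938.5 in RNAi panicles at ripening and 1785 in mutant panicles at meiosis. Both ripening arrays thus stood far above both meiotic ones. The grain genes above had the same order over the arrays, and the part of grain tissue in the result was not tested. The log2 ratio in wild type was 3.83, or 14.2-fold. It lay between 3.73 and 3.85 under the 8 alternative settings that can change a single gene's ratio. Those on probe sets could not change it, as CPK23 had 1 probe set. Between genotypes CPK23 differed little, with -0.04 on the log2 scale for the mutant over wild type and 0.48 for the RNAi line over wild type.

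CPK21, a kinase of abscisic acid and salt responses, read 376 in wild type at ripening and 124 in wild type at meiosis, a log2 ratio of 1.44. CPK9, known from drought tolerance and spikelet fertility, read 628 at ripening and 267 at meiosis in wild type, with a ratio of 1.16. Both were also higher in RNAi panicles at ripening than in mutant panicles at meiosis, with 849 against 94.4 for CPK21 and 344 against 64.4 for CPK9. Among the partners of the other system, CIPK5 read 255 at ripening and 63.1 at meiosis in wild type, a ratio of 1.69. CBL5 read 301 at ripening and 107 at meiosis in wild type, a ratio of 1.32. Both had dim meiotic signals: with every signal below the highest array median (163) raised to that value, called the common floor here, the ratio was 0.64 for CIPK5 and 0.88 for CBL5, under 2-fold.

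CPK3 and CPK5 went the other way. CPK3 read 1856 in wild type at ripening and 4743 in wild type at meiosis, and 2207 in RNAi panicles at ripening and 4919 in mutant panicles at meiosis. CPK5 read 885 in wild type at ripening and 2092 in wild type at meiosis, and 1171 in RNAi panicles and 2212 in mutant panicles. For both genes the 2 meiotic arrays were close to each other and above both ripening arrays. The log2 ratios in wild type were -1.34 for CPK3 and -1.22 for CPK5. The probe set of CPK5 has a name ending in _s_at, which marks probes shared between transcripts, so its signal may include a related gene.

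The other lower members were 4 CIPK and 2 CBL genes. CIPK18 read 892 at ripening and 3350 at meiosis in wild type, and 822 in RNAi panicles and 3106 in mutant panicles, a ratio of -1.88 in wild type. CIPK25 read 493 at ripening and 1577 at meiosis in wild type, and 568 in RNAi panicles and 1323 in mutant panicles, with -1.63. CIPK14, known from defence responses to microbial elicitors, read 1189 at ripening and 3373 at meiosis in wild type, and 735 in RNAi panicles and 2986 in mutant panicles, with -1.49. In all 3 of these CIPK genes both ripening arrays lay below both meiotic arrays.

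CIPK32 read 2179 at ripening and 5444 at meiosis in wild type, a ratio of -1.31, and 2626 in RNAi panicles and 5101 in mutant panicles. Its second, dimmer probe set had a ratio of -0.23, and averaged over both the ratio was -0.77. CBL9 had the lowest ratio of all members, -2.31, with 225 at ripening and 1205 at meiosis in wild type, and 211 in RNAi panicles and 1250 in mutant panicles. Both probe sets of CBL9 end in _x_at, a mark of probes that may match other transcripts, and the second was also lower, with -1.01. CBL4, the sensor that pairs with CIPK24 in the salt tolerance (SOS) pathway, was dim and had no stage order: it read 56.2 at ripening and 184 at meiosis in wild type, a ratio of -1.38, and 206 in RNAi panicles and 70.7 in mutant panicles.

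Of the 13 stage calls, 8 held under each of the 8 alternative settings that can change a single gene's ratio: CPK3, CPK5, CPK21, CPK23, CIPK14, CIPK18, CIPK25 and CBL9. All of these but CBL9 had 1 probe set, so averaging over probe sets and avoiding _x_at and _s_at ones could not change them. No count of held calls over all genes is given here, for this or the later comparisons. Of these 8, CPK21 was too dim to be kept under the stricter filter, the 75th percentile of each array, which left 2 higher and 7 lower members. The 5 others each lost 2-fold under at least 1 setting. Just outside 2-fold lay CIPK21 with 0.88 and CPK19 with -0.87, and the nearest calls inside were CPK9 with 1.16 and CPK5 with -1.22.

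**Figure D2:**
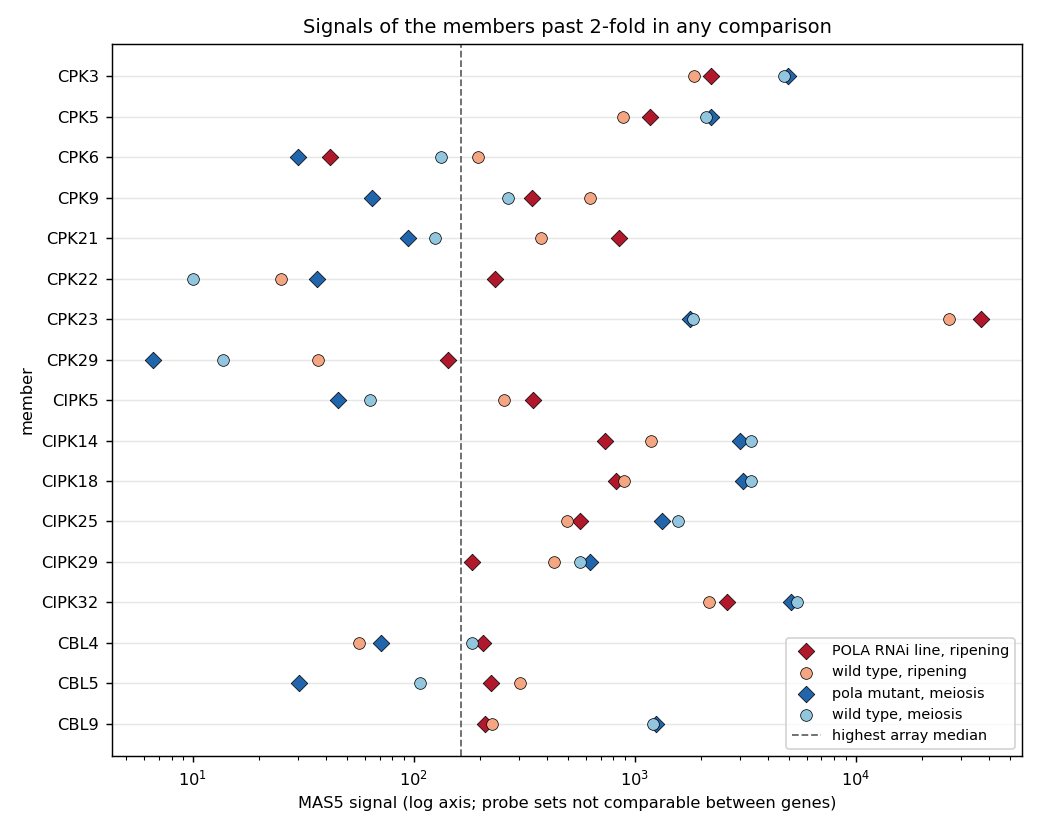
MAS5 signals (x axis, log scale) of the 17 members that passed 2-fold in any comparison (rows), with 1 point per array: POLA RNAi line and wild type at ripening, pola mutant and wild type at meiosis; the dashed line is the highest array median, 163. CPK23 reads 36938.5 and 26454 on the ripening arrays against 1785 and 1838 on the meiotic ones. CPK6, CPK9, CPK21, CPK22, CIPK5, CBL4 and CBL5 have signals on both sides of the line, and all signals of CPK29 lie below it.

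The same stage step can be read as a ratio from the RNAi line at ripening over the mutant at meiosis, 2 arrays that the wild-type ratio does not use, although there the genotype differs as well. This comparison was added after the values were seen. All 5 members called higher in wild type passed 2-fold upward there too, and of the 8 called lower, 5 passed 2-fold downward and 7 had the same direction. Of all genes called in wild type, 72.9% of the 2488 higher and 76.5% of the 2649 lower ones passed 2-fold in the same direction there, and 95.3% and 97.1% had the same direction. CPK23 had 4.35, CPK21 2.89, CIPK5 2.43, CBL5 2.21 and CPK9 2.07, while CBL9 had -2.44, CIPK14 -1.99, CIPK18 -1.89, CIPK25 -1.19 and CPK3 -1.15. CPK5 with -0.90 and CIPK32 with -0.95 stayed under 2-fold. CBL4 was the exception in direction, with 1.29. In all, 13 members were at least 2-fold higher and 6 lower among 50 kept, against 15.7% and 16.8% of 16750 kept genes.

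Taking all 4 arrays, 18 of 51 members (35.3%) had both ripening signals above both meiotic ones and 18 (35.3%) had both below, against 33.3% and 33.2% of all 17905 genes, so the members were again near the background. By family the counts were 8 above and 5 below among 20 CPK genes, 9 above and 10 below among 24 CIPK genes, and 1 above and 3 below among 7 CBL genes. Smaller stage differences of this kind included CIPK1, with 3872 at ripening and 2263 at meiosis in wild type, and 4175 in RNAi panicles and 2850 in mutant panicles. CIPK23, known from potassium uptake, pollination and drought in rice, read 2593 at ripening and 1980 at meiosis in wild type, and 3155 in RNAi panicles and 1932 in mutant panicles. In the opposite direction, CPK19 read 2970 at ripening and 5435 at meiosis in wild type, and 3755 in RNAi panicles and 5628 in mutant panicles. CBL6 read 2777 at ripening and 4132 at meiosis in wild type, and 3266 in RNAi panicles and 4751 in mutant panicles.

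**Figure D3:**
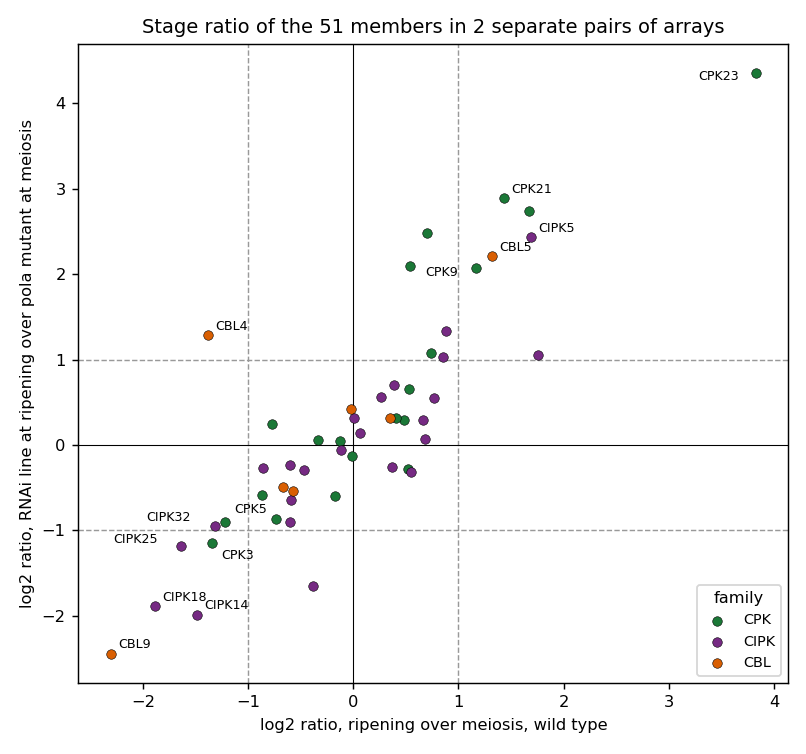
Log2 ratio of ripening over meiosis in wild type (x axis) against the log2 ratio of the POLA RNAi line at ripening over the pola mutant at meiosis (y axis) for the 51 members, which share no array. Dashed lines mark 2-fold, and the 13 members called in wild type are named. CPK23 lies at 3.83 and 4.35, CBL9 at -2.31 and -2.44, and CBL4 alone among the named members lies in opposite directions, at -1.38 and 1.29.

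Setting the pola mutant against wild type at meiosis asks which members differ when the gene is mutated. Nearly all kept members stayed under 2-fold, but so did nearly all genes: 7.14% of kept members passed it, against 6.60% of all kept genes. As a count, the members were thus close to the background here too. No member was at least 2-fold higher and 3 were lower, CPK6, CPK9 and CBL4, among 42 kept, against 2.26% higher and 4.34% lower among all 15779 kept genes. The median log2 ratio was 0.00 for the members and 0.05 for all kept genes. The other 39 members lay between -0.47 (CIPK11) and 0.49 (CIPK7), and none of the 20 kept CIPK genes passed 2-fold.

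CPK9 read 64.4 in mutant panicles and 267 in wild type, a ratio of -1.73. CPK6 read 29.8 in mutant panicles and 132 in wild type, a ratio of -1.55, and its second probe set, also dim, read 24.99 in mutant panicles and 12.8 in wild type. CBL4 read 70.7 in mutant panicles and 184 in wild type, a ratio of -1.14. All 3 lower genes were thus dim in mutant panicles, near the lower of both array medians, and the part of the gap between the medians in the result was not tested. After quantile normalization of the arrays, and also after loess centring, none of the 3 passed 2-fold. CPK9 stayed at the line there, with -0.988 and -0.999. It passed under 5 of the 8 settings, but those on probe sets could not change its ratio, as CPK9 had 1 probe set. CPK6 changed sign to 0.38 after loess centring. So 0 of the 3 calls held under all 8 settings. With the common floor, CPK9 had -0.71, CBL4 -0.17 and CPK6 0.00.

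Members with signals far above the array medians differed little here. CPK13, whose overexpression in rice is known to raise tolerance to cold, salt and drought, read 6250 in mutant panicles and 4606 in wild type, a ratio of 0.44. CPK19 read 5628 in mutant panicles and 5435 in wild type. These genes were as bright in the mutant as in wild type or somewhat brighter. Among the CIPK genes, CIPK6 read 5584 in mutant panicles and 4807 in wild type. CIPK32 read 5101 in mutant panicles and 5444 in wild type, and CIPK2 read 4292 in mutant panicles and 4612 in wild type. CIPK24, the kinase of the salt tolerance pathway, read 1156 in mutant panicles and 1070 in wild type. The sensors CBL6, CBL3 and CBL2 read 4751, 2391 and 1909 in mutant panicles and 4132, 2065 and 1480 in wild type. With members kept only when the higher signal reached the 75th percentile of its array, 34 remained, and none of them passed 2-fold, against 1.24% higher and 0.651% lower among all genes kept by that filter.

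**Figure D4:**
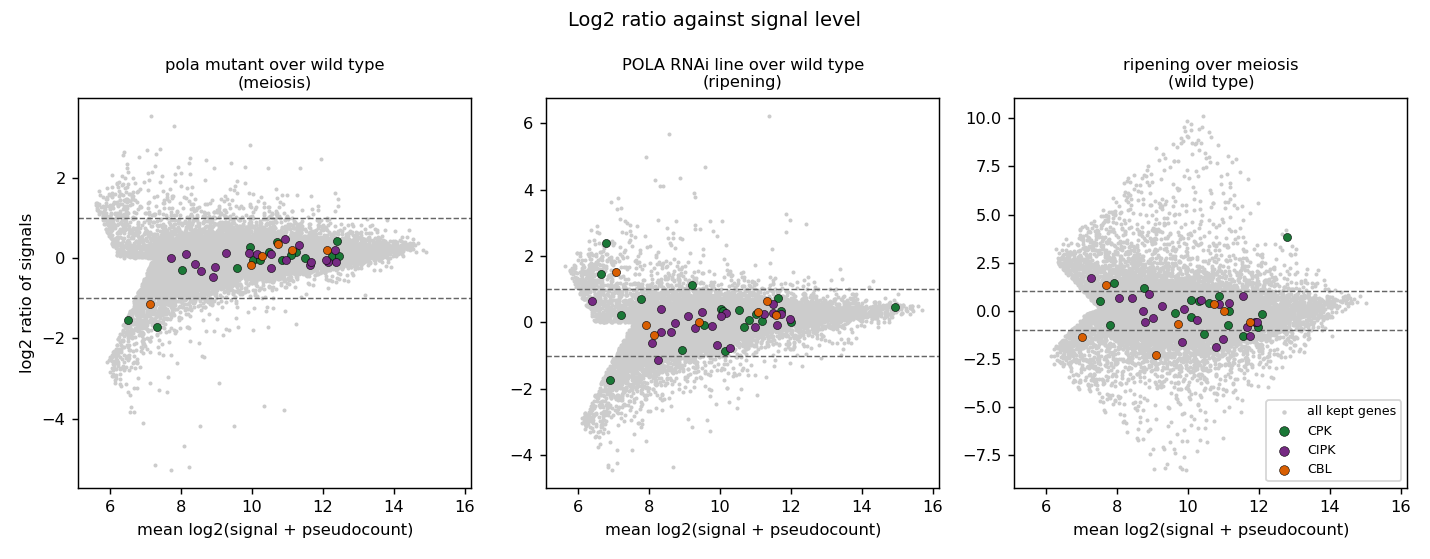
Log2 ratio of signals (y axis, scaled per panel) against the mean of both log2 signals after the pseudocount (x axis) for all kept genes (grey) and the kept members (coloured by family) in the 3 comparisons; dashed lines mark 2-fold. In the left and middle panels the members beyond 2-fold lie at low signal, with CPK21 (849 and 376) the furthest right of them, while the right panel has them at low and at high signal, with CPK23 the furthest right there.

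Setting the POLA RNAi line against wild type at ripening asks which members differ when the gene is targeted by RNAi. CPK21, CPK22, CPK29 and CBL4 were at least 2-fold higher in RNAi panicles, and CPK6 and CIPK29 were lower. These were 4 higher and 2 lower among 49 kept, against 3.63% higher and 7.36% lower among all 15912 kept genes. After quantile normalization and after loess centring alike, 7 members were higher and none lower. The shares of all genes moved as well: with quantile normalization 8.05% were higher and 3.41% lower, and with loess centring 7.54% were higher and 2.26% lower. The gaps in array median and GAPDH ratio given above run alongside the genotype here, while the actin ratio was 6.10 in RNAi panicles and 6.22 in wild type. The part of these gaps in the result was not tested. The median log2 ratio of the members was 0.20, against 0.09 for all kept genes. After quantile normalization it was 0.09 for the members, against 0.05 for all kept genes.

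CPK21 read 849 in RNAi panicles and 376 in wild type, a ratio of 1.13, and it lay between 0.99 and 1.32 under the alternatives, and it missed 2-fold with a pseudocount of 103. It was the one of the 6 that also passed the filter at the 75th percentile. CPK22 read 233 in RNAi panicles and 25.03 in wild type, a ratio of 2.40. CPK29 read 143 in RNAi panicles and 36.8 in wild type, a ratio of 1.47. Both were dim in wild type: with the common floor CPK22 had 0.51 and CPK29 0.00. In the mutant at meiosis, CPK22 and CPK29 read 36.6 and 6.59, and in wild type at meiosis 10.0 and 13.6.

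CIPK29 read 184 in RNAi panicles and 432 in wild type, a ratio of -1.13, and 626 in mutant panicles and 568 in wild type at meiosis, so its lowest signal was in RNAi panicles. After quantile normalization and after loess centring it no longer passed 2-fold. Its neighbour in the gene reference, CIPK2, read 3645 in RNAi panicles and 3028 in wild type, a ratio of 0.27. That signal came from an _x_at probe set, and the other probe sets of CIPK2 went the other way. The ratio was -0.15 for a dimmer probe set that was also kept, and -0.88 for another too dim to be kept. Averaged over its probe sets CIPK2 had -0.25, so its direction depended on the probe set. CPK6 read 41.9 in RNAi panicles and 195 in wild type, a ratio of -1.74. CPK6 was the 1 member past 2-fold in the same direction in both the mutant and the RNAi comparison, which share no array. No share of all genes with this pattern is given, and in both the wild-type array had the higher median. In both, CPK6 was dim and turned to a positive ratio after loess centring (0.21 here). For the RNAi line its ratio was -0.25 with the common floor and -0.51 averaged over both probe sets. The second probe set of CPK6, too dim to be kept, read 37.7 in RNAi panicles and 13.5 in wild type. CBL4 read 206 in RNAi panicles and 56.2 in wild type, a ratio of 1.53 that was 0.34 with the common floor, 2.22 with quantile normalization and 3.16 with loess centring.

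None of the 6 calls held under all 8 alternative settings. The remaining 43 kept members lay between -0.86 (CPK4) and 0.74 (CPK7). CPK4, a kinase of salt, drought and blast responses, read 814 in RNAi panicles and 1500.4 in wild type. CIPK24 read 925 in RNAi panicles and 1581 in wild type, a ratio of -0.76, while its partner CBL4 had the opposite sign. CPK7 read 4038 in RNAi panicles and 2414 in wild type. CBL3 read 3209 in RNAi panicles and 2041 in wild type, a ratio of 0.65. CIPK31, known from germination under stress, read 3487 in RNAi panicles and 2387 in wild type, a ratio of 0.54. A second, dimmer probe set of CIPK31, also kept, went the other way, at 146 in RNAi panicles and 239 in wild type, a ratio of -0.64. These differences were all smaller than 2-fold. Members with still smaller ones were CPK13, with 4109 in RNAi panicles and 4075 in wild type, and CIPK6, with 2987 in RNAi panicles and 3153 in wild type. CPK24, known from cold tolerance, read 1842 in RNAi panicles and 1744 in wild type.

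A group of members hardly differed in any comparison, and as a count it was close to the background. Kept in all 3 and under 0.5 in size in each were 12 of 51 members, against 27.3% of all 17905 genes: CPK1, CPK13, CPK17, CPK18, CPK24, CIPK7, CIPK8, CIPK11, CIPK16, CIPK19, CIPK23 and CBL2. For CPK18 a second, dimmer probe set passed 2-fold, with -1.47 for the mutant and -1.24 for the RNAi line. Second probe sets also differed for CIPK7, with -0.83 for the mutant, and for CPK13, with -0.78 between stages. The bright second probe set of CIPK23 had 0.55 for the mutant and 0.92 between stages, so it passed the limit of 0.5. CPK1 read 2535 in mutant panicles and 2289 in wild type at meiosis, and 2313 in RNAi panicles and 2264 in wild type at ripening. CIPK19 read 987 in mutant panicles and 906 in wild type at meiosis, and 1088 in RNAi panicles and 948 in wild type at ripening. CIPK8 read 1514 in mutant panicles and 1416 in wild type at meiosis, and 1235 in RNAi panicles and 1020 in wild type at ripening. For CPK1 and CIPK19 the 4 arrays lay close together, with no order by stage or genotype larger than these small gaps. CBL2, known from the rice aleurone, read 1909 in mutant panicles and 1480 in wild type at meiosis, and 2376 in RNAi panicles and 1890 in wild type at ripening. It was thus somewhat higher in mutant and RNAi panicles than in their wild types, within 2-fold.

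Other members showed moderate differences that never reached 2-fold between a genotype or stage and its wild-type counterpart. CIPK21 read 622 at ripening and 328 at meiosis in wild type, and 779 in RNAi panicles and 294 in mutant panicles, so both ripening arrays were the higher ones. CPK8 had the same order, with 1284 at ripening and 880.0 at meiosis in wild type, and 1689 in RNAi panicles and 1063 in mutant panicles. CPK20 had the reverse, with 1694 at ripening and 2840 at meiosis in wild type, and 1540 in RNAi panicles and 2833 in mutant panicles. CBL10, known in Arabidopsis from salt tolerance at the vacuole, was also lower at ripening, with 647 at ripening and 1042 at meiosis in wild type, and 656 in RNAi panicles and 930 in mutant panicles. CPK12, known from salt tolerance and blast, followed no stage order, with 254 in RNAi panicles and 146 in wild type at ripening, and 210 in mutant panicles and 265 in wild type at meiosis. CIPK26 was highest in wild type at ripening, at 312, against 196 in RNAi panicles at that stage, and 186 in mutant panicles and 185 in wild type at meiosis.

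The genes that surround these kinases were taken from lists of symbols, and their counts are to be read against the shares of all kept genes given for each comparison. In the mutant, none of 4 calmodulin genes, none of 13 other kinases (the SAPK and SnRK1 kinases of abscisic acid and sugar signalling, and CCaMK) and 1 of 53 kept protein phosphatase 2C genes passed 2-fold. That gene was PP2C30, a phosphatase of abscisic acid signalling, with 1017 in mutant panicles and 331 in wild type, a ratio of 1.55. Of 19 kept potassium and sodium transport genes, 2 were higher and none lower, led by the potassium transporter gene HAK13 with 304 in mutant panicles and 64.1 in wild type, which was 0.90 and under 2-fold with the common floor. Of 11 calcium channels and pumps, 1 was lower, the calcium pump gene ACA7, with 150 in mutant panicles and 380 in wild type, a ratio of -1.22. The median ratios of the kept genes were 0.20 for calmodulins, 0.07 for channels and pumps, 0.30 for potassium and sodium transport, 0.01 for the other kinases and 0.06 for the phosphatases, against 0.05 for all kept genes.

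ACA7 was also lower in RNAi panicles, with 149 against 807 in wild type, a ratio of -2.26, and was the 1 call among 10 kept channels and pumps. The calmodulins and the other kinases again had no call in RNAi panicles. Potassium and sodium transport had 3 higher genes and none lower of 19, with HAK4 at 110 in RNAi panicles and 24.4 in wild type, both below the common floor. Of 54 protein phosphatase 2C genes, PP2C16 was higher, with 623 in RNAi panicles and 272 in wild type, and 2 were lower, led by PP2C32 with 463 in RNAi panicles and 1445 in wild type. The medians were 0.45 for calmodulins, 0.14 for channels and pumps, 0.07 for potassium and sodium transport, 0.16 for the other kinases and 0.12 for the phosphatases, against 0.09 for all kept genes.

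Between stages in wild type, more of these genes differed. RBOHB, the 1 NADPH oxidase gene measured, of a class that CPKs are known to phosphorylate, read 711 at ripening and 4162 at meiosis, a ratio of -2.51. The vacuolar channel gene TPC1 read 491 at ripening and 1721 at meiosis, and 1 channel or pump was higher and 2 lower of 9 kept. Of 13 other kinases, 3 were higher and 1 lower: SNRK1B read 16041 at ripening and 5466 at meiosis, and SAPK2 read 1307 at ripening and 3448 at meiosis. Of 54 protein phosphatase 2C genes, 11 were higher and 7 lower, with PP2C31 at 609 at ripening and 6.01 at meiosis, and PP2C73 at 464 at ripening and 2415 at meiosis. PP2C31 was dim at meiosis, and its ratio of 4.43 was 1.90 with the common floor. Of 19 potassium and sodium transport genes, 5 were higher and 3 lower, with HAK16 at 275 at ripening and 36.6 at meiosis, and HAK4 at 24.4 at ripening and 287 at meiosis. With the common floor HAK16 had 0.75 and HAK4 -0.81, both under 2-fold. CAM61, a calmodulin-like gene, read 1127 at ripening and 292 at meiosis, while the calmodulin gene CAM1 read 4798 at ripening and 10251 at meiosis. The 2 measured transcription factor genes of abscisic acid signalling passed 2-fold in none of the 3 comparisons. The medians between stages were -0.69 for calmodulins, -0.48 for channels and pumps, 0.07 for potassium and sodium transport, -0.12 for the other kinases and 0.26 for the phosphatases, against -0.01 for all kept genes.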

How the data were processed

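Per the submitters' processing notes the deposited values are MAS5 signals, an intensity on a linear scale. The values themselves have a 2% trimmed mean near 500.1 on every array and none below 0. The sources used here give no MAS5 version and no detection calls, and precision is limited by having 1 array per group. From the deposited intensity values, 187 control probe sets were set aside, leaving 57194, of which 22436 were paired with 1 gene, 95 with several and 34663 were not listed. All 17905 genes were found in the gene reference (ASM3414082v1), used for names and gene order. Symbols are printed without their Os prefix.

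With 1 array per group, log2 ratios were computed without any test, and the code was tested on simulated data. Members, lists and settings were chosen with earlier results of these data known. Named genes are members past 2-fold, the 3 brightest of each family, members near 2-fold and the most shifted gene each way of each list. Other genes are named to account for every member and were chosen after their values were seen. Alternatives were the median ratio set to 0, quantile normalization, loess centring (span 0.3), pseudocounts of 5.85 and 103, the common floor, no filter or one at the 75th percentile, a 4-fold threshold, the mean over probe sets, and avoiding _x_at and _s_at probe sets. Python 3.11.15, numpy 2.4.6, pandas 2.3.3 and statsmodels 0.14.6 were used.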

Additional observations from a re-analysis of the deposited data

Results flagged for a closer look

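CBL4 had 2-fold differences of opposite direction in mutant panicles and in RNAi panicles, each against its own wild type. Its log2 ratio was -1.14 for pola mutant over wild type at meiosis and 1.53 for POLA RNAi line over wild type at ripening. With 1 array per group the difference was not tested, and stage and genotype cannot be told apart in it. The signals were 70.7 in mutant panicles and 184 in wild type at meiosis, and 206 in RNAi panicles and 56.2 in wild type at ripening. With the common floor the ratios were -0.17 and 0.34, whereas for the RNAi line quantile normalization gave 2.22 and loess centring 3.16.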

How the results depend on the processing

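No paired analysis was possible because each group had 1 array. Between stages the 5 members higher at ripening became 3 with the median pseudocount, 3 with the common floor, 2 with the 75th percentile filter, 1 at 4-fold and 13 in RNAi panicles over the mutant, and the 8 lower became 1 at 4-fold. Of all kept genes, 15.4% were higher in the main setting and 12.7%, 13.1%, 14.3%, 6.59% and 15.7% under these, in the same order. At 4-fold 5.78% of all kept genes were lower, against 16.4% at 2-fold. The stage median of -0.02 was -0.26 with the 75th percentile filter, against -0.06 for all genes kept by that filter. The 3 members lower in mutant panicles became 0 after quantile normalization, loess centring, the common floor, the 75th percentile filter and at 4-fold, and 1 with the median pseudocount. The share of all kept genes that was lower fell as well, from 4.34% to 1.39%, 0.837%, 1.03%, 0.651%, 0.957% and 1.72%, in the same order. In the RNAi line the 4 higher became 7 after quantile normalization and loess centring, and 1 with the median pseudocount, the common floor, the 75th percentile filter and at 4-fold. Of all kept genes, 3.63% were higher in the main setting and 8.05%, 7.54%, 1.75%, 1.90%, 2.03% and 0.622% under these, in the same order. The 2 lower became 0 after quantile normalization, loess centring, the 75th percentile filter and at 4-fold, and 1 with the median pseudocount, the common floor and probe sets averaged. The share of all kept genes that was lower was 7.36% in the main setting. Under these settings it was 3.41%, 2.26%, 2.15%, 1.65%, 4.24%, 3.63% and 7.545%, in the same order. The RNAi median of 0.20 was 0.0906 after quantile normalization, 0.0944 after loess centring and 0.0791 with the common floor. For all kept genes the median was 0.0867 in the main setting and 0.0482, 0.0448 and 0.0509 under these, in the same order. Among the called values of single members, those that changed sign were CPK6, at 0.38 in mutant panicles and 0.21 in RNAi panicles after loess centring, and CBL4, at 1.29 for stage in RNAi panicles over the mutant. Values that were not called also changed sign, such as CPK29 in the mutant, at -0.30 and, after loess centring, 3.16. The cause of these changes was not tested. Other counts stayed within 1.5 times and other medians within 0.1 of their values. Dim signals, for which no detection calls were used, limit all calls below the highest array median.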

Other observations

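The probe sets of a member did not always read alike. The second probe set of CPK18 read 40.7 in mutant panicles and 155 in wild type at meiosis, and 62.8 in RNAi panicles and 180.0 in wild type at ripening, with log2 ratios of -1.47 and -1.24. The brighter probe set used for CPK18 had -0.25 and -0.08. For CIPK23 both probe sets were bright, and the second had 0.55 in the mutant comparison and 0.92 between stages in wild type, where the one used had -0.03 and 0.39. The 4 probe sets of CIPK10 had log2 ratios between -0.86 and -0.28 for RNAi line over wild type, all below 0, and between -0.59 and 0.94 in the stage comparison. The second probe set of CBL9 read 155 in RNAi panicles and 372 in wild type at ripening, a ratio of -1.15, where the one used had -0.09. Of the 51 members, 11 had several probe sets.

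CIPK30 and CIPK12 are neighbours in the gene reference, and both were too dim to be kept in the comparisons with wild type and between wild-type stages. In the RNAi line at ripening over the mutant at meiosis both were kept, with 1.05 for CIPK30 and -0.06 for CIPK12. CIPK30 read 108 in wild type at ripening and 15.5 in wild type at meiosis, while CIPK12 read 106 at ripening and 117 at meiosis. CPK2, also dim, read 137 in RNAi panicles and 114 in wild type at ripening, and 0.626 in mutant panicles and 19.6 in wild type at meiosis.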
